A study of Mus musculus with 6 samples.

Results

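The MHC class I presentation genes described here are 10 of the 27179 genes listed for B16F10 cells. They are the immunoproteasome subunits Psmb8, Psmb9 and Psmb10, the peptide transporter subunits Tap1 and Tap2, tapasin (Tapbp), the class I light chain B2m, the heavy chains H2-K1 and H2-D1, and the regulator Nlrc5. All 10 were found by their symbols. They were chosen partly by the low p-value of Psmb8, at very few reads, in the authors' own comparison of OZO with OLO, so they are not a sample of the transcriptome. No value of that comparison is used here.

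B16F10 is an established mouse melanoma line from a C57BL/6 skin tumour, labelled wild type. RNA was sequenced from 3 libraries of cells kept for 6 h in 0.01% olive oil (OLO) and from 3 libraries of cells kept for 6 h in 0.01% ozonated olive oil (OZO), the same oil after reaction with ozone. All 6 libraries thus share the line, the oil base, the dose and the time, and no library without oil is among them. The value analysed for each gene is the authors' mean log2 CPM, reads of a gene scaled to a common library size, over the 6 libraries, OLO and OZO together. Any effect of OZO lies inside that mean, and neither a difference between the groups nor an error between replicates can be given from it.

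Cells show their contents to cytotoxic T cells through class I molecules. Proteasomes cut proteins into peptides, the TAP transporter carries the peptides into the endoplasmic reticulum, tapasin holds empty class I molecules at the transporter, and a heavy chain with B2m carries the loaded peptide to the surface. Interferon-gamma induces most of these genes through IRF1 and NLRC5, and under its action Psmb8, Psmb9 and Psmb10 replace the constitutive catalytic subunits Psmb5, Psmb6 and Psmb7. B16F10 is known for low surface class I that rises with interferon-gamma.

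The cells carried the markers of their label. All 8 melanocyte markers were at 1 CPM or more with a median of 423 CPM, from Mc1r, the melanocortin receptor, at 61.0 CPM to Dct, a melanin enzyme, at 7052 CPM. Of 8 leukocyte markers, 1 reached 1 CPM, the lysosomal protein Cd68 at 5.47 CPM, and Cd3e of T cells was lowest at 0.0367 CPM. The fibroblast list had 3 of 6 genes at 1 CPM or more and the endothelial list had 2 of 4, with highest levels of 3.28 CPM (Pdgfra) and 1.92 CPM (Vwf). None of 5 keratinocyte markers reached 1 CPM. Melanocyte markers were thus far above the listed markers of other skin or blood cells, some of which had reads at low levels. Which cells those reads came from was not tested. In these bulk samples, fewer cells of a type and less RNA per cell cannot be told apart.

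The promoters of both heavy chains and of B2m are shown first because they carry the shared control elements of class I genes. The windows run from 250 bases before to 50 bases from the start site (RefSeq, GRCm38.p6, the build of the files), and 8 of the 10 genes matched one. They lie at chr17:34000298-34000597 on the minus strand (H2-K1), chr17:35262844-35263143 on the plus strand (H2-D1) and chr2:122147437-122147736 on the plus strand (B2m). Capitals mark a kappaB site (GGGATTCCC), an IRF core (TTTCNNTT, on the opposite strand in B2m), a CRE core (TGACG) and an inverted CCAAT box (ATTGG). Further matches on the opposite strand are not marked: an inverted CCAAT box in both H2-K1 and H2-D1 and a CRE core in B2m.
H2-K1: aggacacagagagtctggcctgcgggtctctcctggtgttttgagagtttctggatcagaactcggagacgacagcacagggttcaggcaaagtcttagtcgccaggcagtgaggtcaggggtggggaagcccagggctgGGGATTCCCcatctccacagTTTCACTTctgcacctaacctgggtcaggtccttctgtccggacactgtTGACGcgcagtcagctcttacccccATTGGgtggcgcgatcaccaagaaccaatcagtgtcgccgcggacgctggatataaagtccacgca
H2-D1: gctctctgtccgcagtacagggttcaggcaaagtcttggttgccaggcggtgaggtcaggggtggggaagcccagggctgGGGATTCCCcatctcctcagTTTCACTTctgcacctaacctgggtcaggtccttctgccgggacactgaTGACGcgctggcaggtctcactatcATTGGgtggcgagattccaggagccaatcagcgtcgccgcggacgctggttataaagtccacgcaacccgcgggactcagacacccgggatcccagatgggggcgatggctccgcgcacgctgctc
B2m: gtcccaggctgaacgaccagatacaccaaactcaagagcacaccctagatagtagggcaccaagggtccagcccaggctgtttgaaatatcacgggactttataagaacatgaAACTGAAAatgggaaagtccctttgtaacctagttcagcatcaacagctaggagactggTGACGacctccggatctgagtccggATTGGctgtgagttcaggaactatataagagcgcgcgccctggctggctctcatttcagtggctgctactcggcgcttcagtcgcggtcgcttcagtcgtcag
In all 3 windows the CRE core and the inverted CCAAT box stood on the gene's strand with 20 bases between them. That spacing was found in 31 of 32851 RefSeq windows (0.0944%), belonging to 27 genes, 4 of them in the lists used here: B2m, H2-D1, H2-K1 and the class I gene H2-M3. It was chosen for the search after these sequences had been read. Singly, the letters are common, since either strand held TGACG in 20.8% of windows, ATTGG in 37.4% and TTTCNNTT in 23.9%. GGGATTCCC was found in 116 windows (0.353%), among them those of H2-K1 and H2-D1 but not B2m. Lined up at the spaced pair, the H2-K1 and H2-D1 windows had the same base at 176 of 240 positions (73.3%), and H2-K1 and B2m at 87 of 263 (33.1%). The H2-D1 and H2-K1 promoters are thus close relatives of unequal level, given with the chains.

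Tap1 and Psmb9 lie head to head, with start sites 226 bp apart in RefSeq, so their windows share 275 bases. The Tap1 window (chr17:34187306-34187605, plus strand) is printed because the same stretch, read on the other strand, precedes Psmb9. Capitals mark an inverted CCAAT box and a GC box (GGGCGG) on the opposite strand and a CRE core on the gene's strand.
Tap1: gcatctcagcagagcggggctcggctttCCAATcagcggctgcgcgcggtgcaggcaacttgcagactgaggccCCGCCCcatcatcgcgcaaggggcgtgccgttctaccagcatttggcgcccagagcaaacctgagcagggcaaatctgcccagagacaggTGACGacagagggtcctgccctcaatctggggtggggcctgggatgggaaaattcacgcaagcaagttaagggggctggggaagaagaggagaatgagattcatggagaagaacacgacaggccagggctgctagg
The GC box was found for 3 of the 8 genes with a window (Psmb9, Tap1 and Tapbp), near its share of 35.7% of all windows. The Psmb9 and Tap1 matches are the same site in the shared stretch. The Psmb10 window held none of the motifs spelled out here. A match describes letters and not binding.

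**Figure D1:**
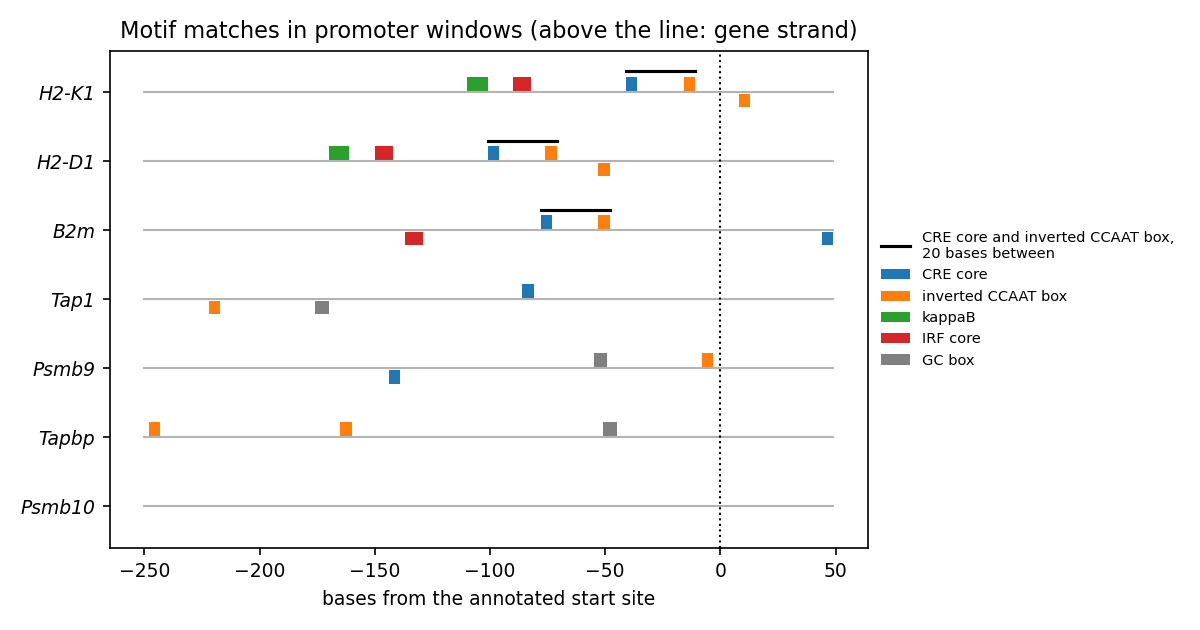
Position of each motif match in the promoter windows of 7 genes, in bases from the annotated start site (dotted line), with matches on the gene's strand above each line and on the opposite strand below. The black bars, present for H2-K1, H2-D1 and B2m, span the CRE core and inverted CCAAT box with 20 bases between them.

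Across the 10 genes the level ran from 0.0664 CPM (Psmb9) to 249.7 CPM (B2m), with a median of 4.97 CPM. At 1 CPM, which stood for 19.6 reads in a library of the geometric mean size of 19641945 reads, 8 of the 10 genes (80%) were at or above the line, beside 43.7% of all 27179 genes (11878). The members' median was above 63.8% of all genes, but among the genes at 1 CPM or more it was above 17.1%. The genes were therefore mostly transcribed but mostly low. In descending order they were B2m, Tapbp, H2-D1, Nlrc5, Psmb10, Tap1, Tap2, H2-K1, Psmb8 and Psmb9. On the scale of the means, the widest step was the 15.0-fold one from H2-K1 down to Psmb8, and the next was the 9.77-fold one from B2m to Tapbp. The means allow up to 220 reads in total for Psmb8 and 157 for Psmb9, and as few as 131 for H2-K1. In total reads, the size of the widest step and the order of H2-K1, Psmb8 and Psmb9 are therefore not settled. Nlrc5 and Psmb10 were 1.03-fold apart and Psmb8 and Psmb9 1.06-fold. Whether any neighbours in the order differed beyond the spread between libraries was not tested.

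**Figure D2:**
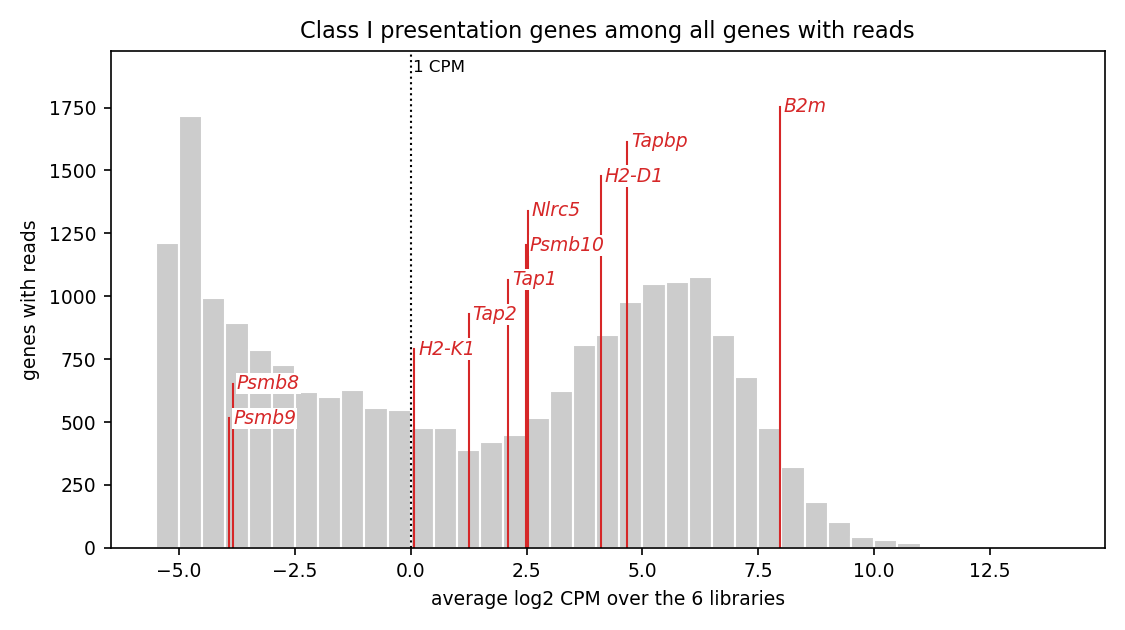
Histogram of the average log2 CPM of the 21154 genes with reads (x axis, over 6 libraries; y axis, number of genes), with a red line for each member. Psmb8 and Psmb9 stand left of the line at 1 CPM and the other 8 genes at or right of it, B2m the farthest.

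Psmb8 (beta5i, the chymotrypsin-like subunit of the immunoproteasome; chr17:34197721-34201454, plus strand) had an average of -3.83 on the log2 CPM scale, or 0.0702 CPM. A gene with no read in any library stands at 0.0255 CPM on this scale, because 0.5 reads are added to every count, and 6025 genes stood there. The mean still holds what the counts can have been: the product of 2 times the reads plus 1 over the 6 libraries was 441, or 3 x 3 x 7 x 7. Only 9 unordered sets of reads give that product, with totals of 8 to 220 reads. The smallest set has 0, 0, 1, 1, 3 and 3 reads. In every set, at least 2 of the 6 libraries had no Psmb8 read and 1 library had at least 3. Which libraries these were, and whether they were OLO or OZO, cannot be read from a mean.

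Psmb9 (beta1i, the subunit that replaces Psmb6; chr17:34181987-34187764, minus strand) averaged -3.91 on the log2 CPM scale, or 0.0664 CPM. Its product was 315, which 11 sets of reads give, with totals of 7 to 157 reads. The smallest set has 0, 0, 1, 1, 2 and 3 reads, and again at least 2 of the 6 libraries had none. Set against the geometric mean library size, the sets with the most reads average 1.87 CPM for Psmb8 and 1.33 CPM for Psmb9. Both are above 1 CPM, so the count of 8 members at that line holds for the scale of the deposited means. Ptprc (CD45), which marks all leukocytes, was 1 of 23 other genes with the same mean as Psmb8, and 75 other genes shared the mean of Psmb9. Immunoproteasome subunits are abundant in leukocytes, and what part such cells have in these reads was not tested.

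**Figure D3:**
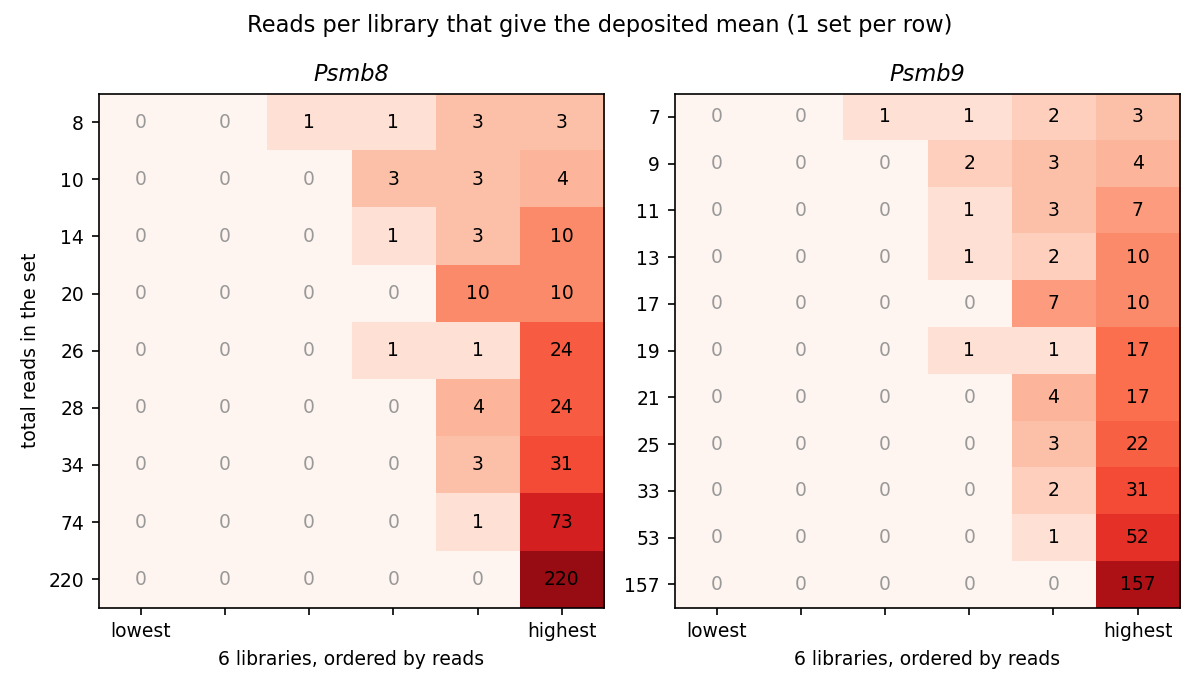
Every set of reads over the 6 libraries that gives the deposited mean of Psmb8 (9 sets) or Psmb9 (11 sets), with 1 set per row, the total at left and the libraries ordered from lowest to highest within the row. At least 2 libraries are at 0 reads in every row.

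Psmb10 (beta2i, the subunit that replaces Psmb7; chr8:105935735-105938444, minus strand) was far above both, at 2.49 on the log2 scale or 5.62 CPM, from at least 660 reads in all. Per kilobase of exon, Psmb10 stood at 3.30 CPM, beside 0.0208 CPM for Psmb8 and 0.0181 CPM for Psmb9. The constitutive subunits were at 56.9 CPM per kilobase for Psmb5, 48.8 for Psmb6 and 54.1 for Psmb7. Per kilobase of coding sequence the same genes were farther apart, at 64.6, 128 and 223 CPM. The ratio of constitutive to induced subunit was 16.4 for Psmb7 over Psmb10, 2739 for Psmb5 over Psmb8 and 2690 for Psmb6 over Psmb9. All 3 ratios depended on the gene length used, and without a length correction they were 32.9, 728 and 1376. Those of Psmb8 and Psmb9 rest also on the added 0.5 reads: in total reads the means allow ratios down to 27.4 for Psmb5 over Psmb8 and 68.6 for Psmb6 over Psmb9, with no length correction. The catalytic subunits of the standard proteasome thus exceeded their induced counterparts at all 3 places on this scale. Pomp, the maturation factor, stood at 114 CPM, and the interferon-inducible activator subunits Psme1 and Psme2 at 28.6 and 13.7 CPM, so low levels were not shared by every interferon-responsive proteasome gene.

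Tap1 (chr17:34187553-34197225, plus strand) averaged 2.11 on the log2 CPM scale, or 4.31 CPM, from at least 506 reads. Tap2, its partner in the transporter (chr17:34203527-34216321, plus strand), averaged 1.25, or 2.37 CPM. Per kilobase of exon the transporter subunits were at 0.787 and 0.628 CPM, a ratio of 1.25 for Tap1 over Tap2. The mean of Tap2 allows many sets of reads, all with at least 281 reads in total, and in each the highest library had at least 1.52 times the lowest, on reads plus 0.5. Depth was not taken out of that ratio. Tapbp (chr17:33915899-33929292, plus strand) was the second highest gene at 4.68, or 25.6 CPM, and 7.05 CPM per kilobase.

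Psmb9, Tap1, Psmb8 and Tap2 stand side by side within the MHC on chromosome 17. In the GENCODE annotation, where Psmb9 starts farther upstream than in RefSeq, Psmb9 and Tap1 overlap by 212 bp on opposite strands, Psmb8 begins 495 bp beyond Tap1, and Tap2 begins 2072 bp beyond Psmb8. Along this short stretch the level alternated, with Tap1 64.9-fold above Psmb9 and 61.4-fold above Psmb8, and Tap2 33.8-fold above Psmb8. Per kilobase of exon, Tap1 was 43.4-fold above Psmb9, and per kilobase of coding sequence 19.6-fold. The folds over Psmb8 and Psmb9 rest also on the 0.5 reads added to each count. In total reads the means allow ratios down to 3.22 for Tap1 over Psmb9, 2.30 for Tap1 over Psmb8 and 1.28 for Tap2 over Psmb8. The libraries were made with a strand-marking kit, but whether counting used strand is not given in the sources used here, and reads in the Psmb9 and Tap1 overlap could fall to either gene. The same holds for Psmb8 and Tap2, which overlap the opposite-strand genes Gm20496 (both) and Gm15821 (Tap2). B2m, Tapbp, Psmb10 and Nlrc5 also overlap a gene on the opposite strand, while H2-K1 and H2-D1 overlap none. Tapbp and Nlrc5 overlap a gene on their own strand as well (Zbtb22 and Mir7072), which strand cannot separate.

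The light chain B2m (chr2:122147686-122153083, plus strand) was the most abundant member at 7.96 on the log2 CPM scale, or 249.7 CPM, above 97.3% of all genes. The heavy chain H2-D1 (chr17:35262730-35267499, plus strand) averaged 4.10, or 17.1 CPM, from at least 2016 reads. H2-K1 (chr17:33996017-34000347, minus strand) averaged 0.08, or 1.06 CPM. Per kilobase of exon, B2m was at 290 CPM, H2-D1 at 6.64 and H2-K1 at 0.359. H2-D1 thus exceeded H2-K1 by 18.5-fold, and B2m exceeded the sum of both heavy chains by 41.5-fold, or 13.7-fold without a length correction.

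The heavy chain genes are close in sequence, which can blur counts. Of the 150-base stretches of the longest annotated H2-K1 transcript, 0 of 1725 occurred in a transcript of another gene, and for H2-D1 it was 35 of 1953 (1.79%), all shared with H2-Q1. The longest transcripts of the other 8 members shared none. Exons outside the longest transcript were not searched, and these were part of the exon length used here. The H2-K1 mean allows 1940 sets of reads, all with at least 131 reads in total. In every set the highest library had at least 30 reads and the lowest at most 9, a ratio of at least 3.21 on reads plus 0.5. The libraries thus differed in H2-K1 reads, and how far depth or treatment went with that difference was not tested.

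Nlrc5, the activator that class I promoters recruit (chr8:94434356-94527272, plus strand), averaged 2.53 on the log2 CPM scale, or 5.79 CPM, from at least 679 reads. Being long, it was at 0.681 CPM per kilobase, next to Tap1 and Tap2. Counting error alone, taken from the fewest reads a mean allows, was at most 3.84% of the Nlrc5 total, and over the 8 higher members it ran from 0.583% for B2m to 8.74% for H2-K1. The replicate error is not known.

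**Figure D4:**
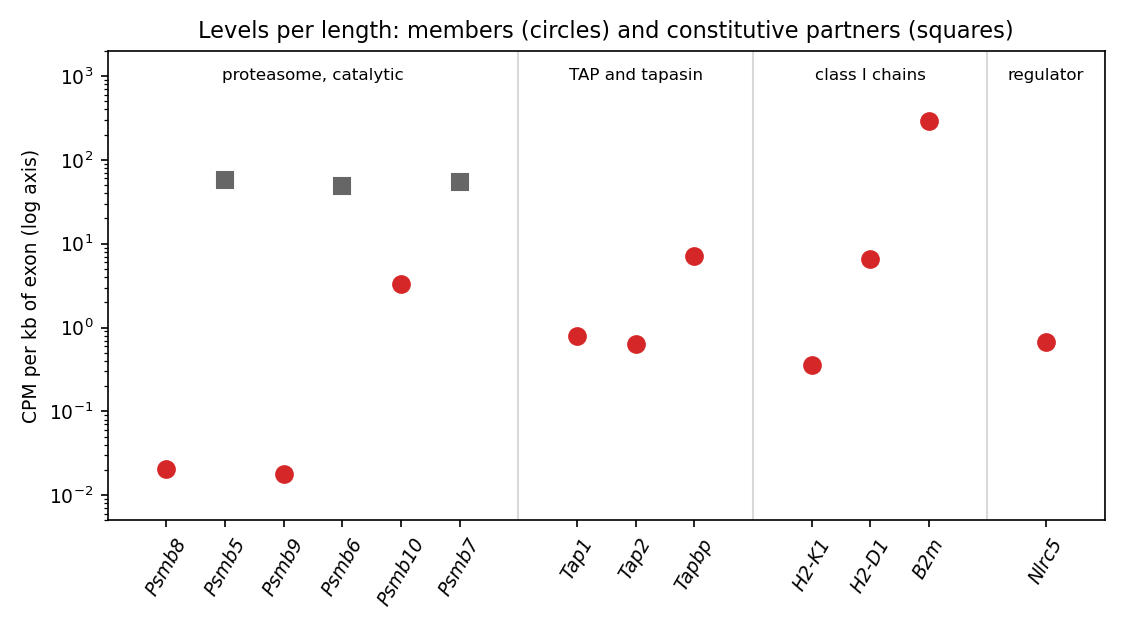
Level in CPM per kilobase of exon on a log axis for the 10 members (circles) and the 3 constitutive proteasome subunits (squares), by role. Psmb8 and Psmb9 lie near 0.02 CPM per kilobase, while their counterparts Psmb5 and Psmb6 lie near 50 and B2m stands highest.

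The rest of the pathway was read from lists of genes by role. The 6 peptide loading helpers were all at 1 CPM or more with a median of 958 CPM. They ran from Tapbpl, a relative of tapasin, at 4.95 CPM, and the peptide-trimming enzyme Erap1 at 20.7 CPM to the general chaperones Calr at 913 CPM and Hspa5 at 1757 CPM. Tapbpl and Erap1 thus lay within the wide range of the members. Calr, Hspa5, Pdia3 (1003 CPM) and Canx (1609 CPM) lay above every member. Of the other class I heavy chains, 18 had a row, 14 had reads and 5 reached 1 CPM. The highest was Mr1, which presents vitamin B metabolites, at 35.8 CPM, and the lowest with reads were H2-Q1 and H2-Q7, both at 0.0306 CPM.

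Class II genes, which serve presentation by professional antigen-presenting cells, were low. Of 9 genes 8 had reads, and the invariant chain Cd74 alone reached 1 CPM, at 1.27 CPM. Ciita, the class II counterpart of Nlrc5, was at 0.179 CPM. On the scale of the means, Psmb8 and Psmb9 lay below the class II median of 0.144 CPM, and H2-K1 lay between that median and Cd74. The sets of reads with the most reads reach 1.87 CPM for Psmb8 and 1.33 CPM for Psmb9, so the place of these genes is not settled.

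Upstream of the members, 8 of 9 interferon receptor and signalling genes were at 1 CPM or more. The interferon-gamma receptor chains Ifngr1 and Ifngr2 were at 29.0 and 40.7 CPM and the kinases Jak1 and Jak2 at 204 and 61.4 CPM, while the feedback inhibitor Socs1 was at 0.244 CPM. Of 8 interferon genes, 7 had no read in any library, and Ifna2 stood at 0.0306 CPM. Of 18 transcription factors linked to class I genes, 17 reached 1 CPM, from Creb1, which binds CRE sites, at 189.6 CPM to Irf8, a factor of blood cells, at 0.156 CPM below the line. All 4 polycomb repressive complex 2 genes were expressed, with the methyltransferase Ezh2 at 492 CPM. The means thus held receptor and kinase transcripts with scarcely any interferon transcript, and interferon in the serum or protein levels were not measured.

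**Figure D5:**
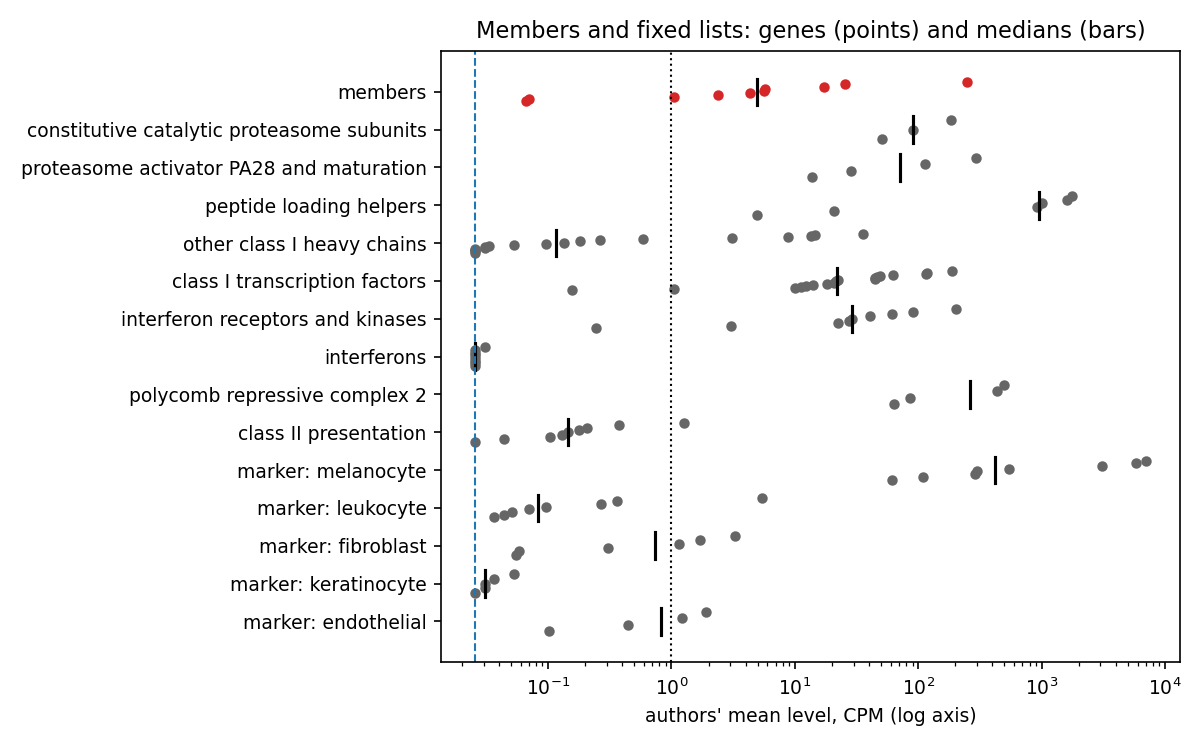
The authors' mean level in CPM (log axis) for each gene of the members and of the lists, with a black bar at the list median. The dashed line is the level of a gene with no reads (0.0255 CPM) and the dotted line 1 CPM, and the members spread from near the floor to 249.7 CPM.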

How the data were processed

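RNA of B16F10 cells was sequenced from 3 OLO and 3 OZO libraries (paired reads of 150 bases). Per the labels and methods, the authors aligned to mm10 with HISAT2 2.1.0, counted reads with featureCounts 2.1.1 and compared groups with limma 3.58.1 (voom). The deposited value used here is the authors' average log2 CPM per gene over all 6 libraries. The other 5 numeric columns hold the authors' own comparison (log2 fold change, moderated statistic, p-value, adjusted value and log odds) and were not used. No library was analysed on its own, so no test was made, the planned one included.

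From the mean, the level of genes without reads gives the library size (geometric mean, scaled), and 2 to the power of 6 times the distance from it is a product of odd numbers, one per library. This held within 0.001 for 8941 of 8941 genes with a product under 1e9, against 0.242% assuming 5 libraries and 0.221% assuming 7. Products from 1e9 to 1e12, where H2-K1 and Tap2 lie, were odd whole numbers within 0.1 for 1574 of 1574 genes, against 11.5% and 9.54%. Factoring then lists the possible reads, which are counts before depth scaling. The steps were tested on simulated data made with the same formula. That checks the arithmetic and not how the deposited mean was made.

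Exon length is the union of exons in GENCODE M21 (GRCm38, the same build as mm10). Gene coordinates are from it too. Motifs were searched on both strands of RefSeq GRCm38.p6 promoter windows. A further motif searched is not reported here. Python 3.11.15, numpy 2.4.6, pandas 2.3.3 and matplotlib 3.10.9 were used.

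Members and lists were chosen with earlier results of these data known. Named are all members, Psmb5, Psmb6 and Psmb7, and of other lists the highest and lowest gene with reads, or any gene in lists of up to 9. The motif spacing, Ptprc, H2-M3 and the ratios of Tap1 to Tap2, of H2-D1 to H2-K1, of B2m to the heavy chains and of Tap1 to Psmb9 were chosen after values or sequences were seen.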

Additional observations from a re-analysis of the deposited data

How the results depend on the processing

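The number of members at 1 CPM or more, 8, became 8 at a line of 0.5 CPM and 7 at 2 CPM. The members' median was above 63.8% of all genes, 53.4% of genes with reads and 17.1% of genes at 1 CPM or more. With the longest transcript, the coding length and no length correction, in that order, Psmb5 over Psmb8 was 1545, 762 and 728, and Psmb6 over Psmb9 was 4108, 1266 and 1376. Psmb7 over Psmb10 was 32.5 with the coding length and 32.9 without length correction. B2m over the heavy chains was 13.7 without length correction, and Tap1 over Psmb9 was 19.6 with the coding length. Each ratio stayed above 1 under these alternatives. The ratios of Tap1 to Tap2 and of H2-D1 to H2-K1 moved by less than 1.5 times. No paired analysis was possible because the value of each gene is a mean over all 6 libraries. For the same reason leaving out each replicate, another normalization, no filter and another pseudocount were not run. Depth limits Psmb8 and Psmb9, whose levels depend on the 0.5 reads added to each count.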
